A study of Brassica rapa subsp. chinensis with 6 samples.

Results

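Cytochrome P450 genes of pakchoi (Brassica rapa subsp. chinensis) were compared between the chlorotic mutant strain 564Y and the wild type strain 564. The rule took every gene of the authors' table of called genes whose best sequence match was described as a cytochrome P450 or by a CYP name, leaving out descriptions with CYP79, CYP83, flavonoid, allene oxide or jasmon. It found 48 of 2958 listed genes. Of these 48, 4 are written as cytochrome P450 79b2, 79f1 or 83a1, another spelling of the glucosinolate core families, so they stayed in although the rule was meant to leave them out. A further 4 members are named CYP81F, a subfamily that modifies indole glucosinolates in Arabidopsis. The set is therefore called P450 genes here, and counts without those genes are given beside the main ones.

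The RNA was from aboveground parts, taken at the trifoliate stage, with 3 libraries of strain 564 (genotype wild type) and 3 of strain 564Y (genotype mutant). The mutated gene is not named in the labels, and the sources used here give neither the origin of the mutation, nor the number of plants per library, nor the growth conditions. The extraction protocol speaks of several time points, whereas each library is labelled with a single stage. The table holds genes that passed the authors' limits (adjusted p under 0.001, absolute log2 ratio 1 or more). P450 genes that did not differ were not analysed here, and the tissue could not be checked against leaf markers.

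Cytochrome P450s are haem-containing monooxygenases, mostly anchored in the endoplasmic reticulum, that receive electrons from a reductase and insert oxygen into small molecules. Plant genomes hold large families of them, numbered by sequence similarity and gathered into clans. Members of the CYP71 clan mostly serve defence compounds and phenolics, whereas the CYP72, CYP85, CYP86 and CYP710 clans hold many enzymes of hormones, sterols and the fatty acids of cutin, suberin and wax.

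Levels are the authors' base means, called normalised reads below: read counts divided by a size factor per library and averaged over the 3 libraries. Whole reads of single libraries were worked out from the deposited means for all 48 members in the wild type and for 41 in both strains. The libraries are called A, B and C within each strain, letters that do not correspond to replicate numbers. In bulk tissue, a change in the number of expressing cells and a change in RNA per cell cannot be told apart.

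Of the 48 P450 genes, 34 were higher in the mutant and 14 lower, a share of 70.8% higher. Of all listed genes 59.7% were higher and 40.3% lower. Without the 4 glucosinolate core genes, 34 were higher and 10 lower (77.3% higher), and without CYP81F as well, 33 and 7 (82.5%). Among members with reads in both strains, the log2 ratios of the authors' deposited table had a median size of 2.30 in the 31 rising genes and 1.95 in the 12 falling genes. Over all listed genes these medians were 1.70 and 1.54. A log2 ratio of 2 or more in size was reached by 22 higher and 8 lower members, beside 24.6% and 13.3% of all listed genes. In 5 members 1 strain had 0 reads (the wild type in 3 and the mutant in 2), beside 5% of all listed genes. Below 20 normalised reads in the wild type 14 of 15 members were higher, beside 93.8% of listed genes at that level, and above 400 it was 3 of 9, beside 36.3%. A gene near 0 reads in the wild type can pass the authors' limits almost only by rising, so nothing is read from these shares.

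**Figure D1:**
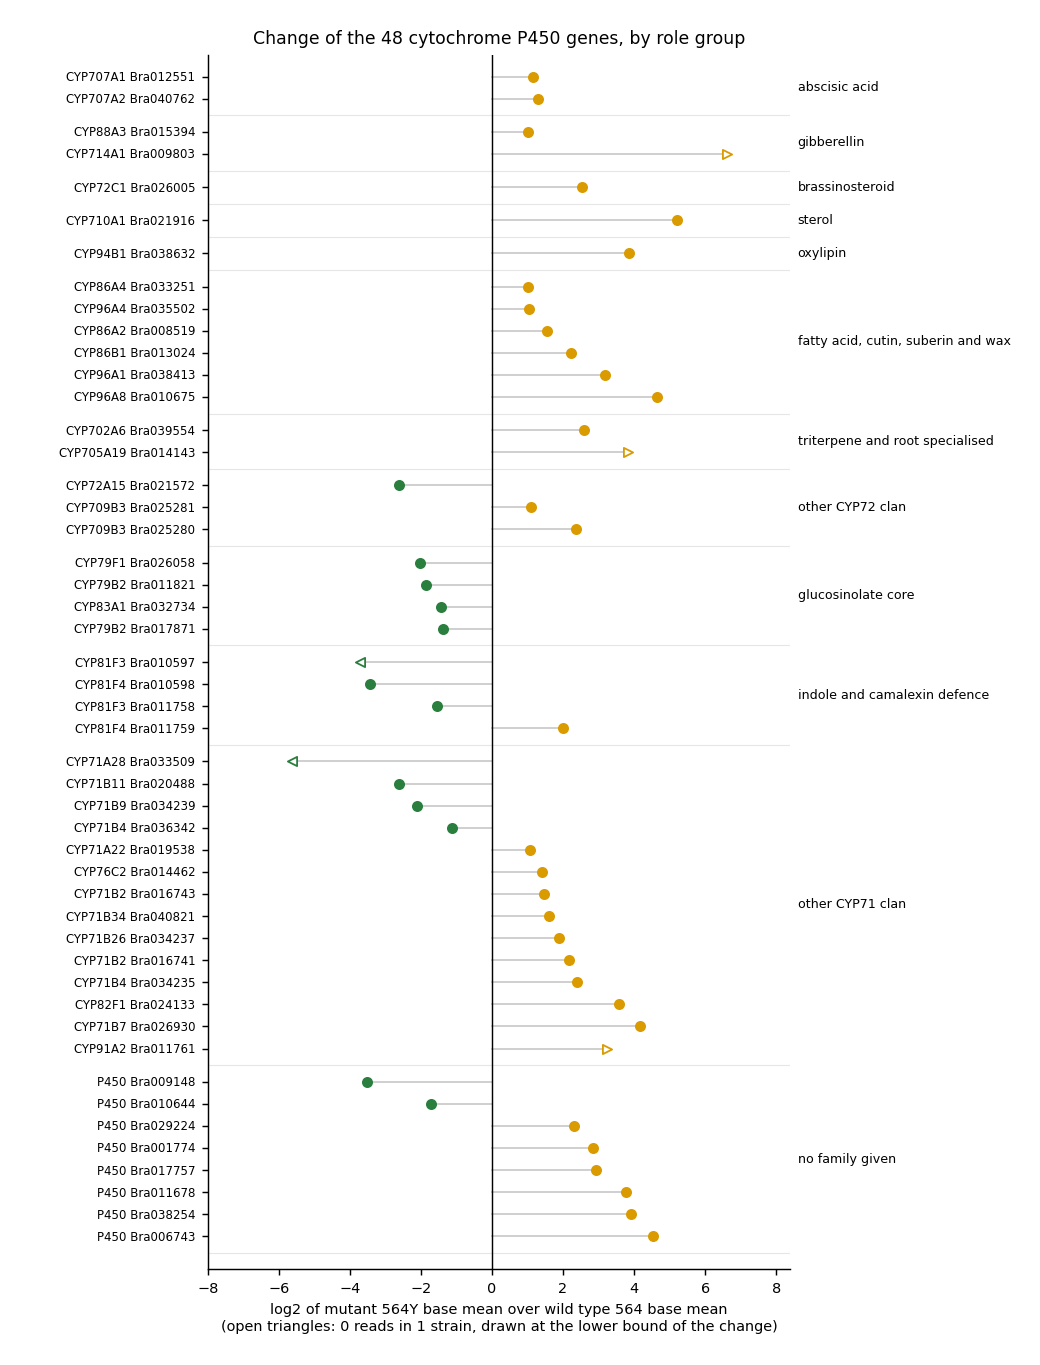
Log2 ratio of the mutant to the wild type base mean for each of the 48 P450 genes, grouped by role. Filled points are genes with reads in both strains (orange higher, green lower in the mutant) and open triangles are the 5 genes with 0 reads in 1 strain, drawn at their lower bound. All members of the hormone, sterol, oxylipin, fatty acid and triterpene groups lie to the right of 0, and the glucosinolate core genes lie to the left. Of all listed genes 59.7% were higher.

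For the 41 members with recovered libraries, edgeR's quasi-likelihood test was fitted over all 2604 recovered genes. All 41 passed an adjusted p of 0.05, as did all 2604 genes. These p-values set the difference between strains against the spread between libraries. They are no independent evidence for a gene that was already selected. The libraries of both strains did not overlap in any of the 41, beside 100% of the recovered genes. An exact permutation test of 3 against 3 libraries cannot go below p = 0.1. The median coefficient of variation between libraries, for members at 20 or more normalised reads, was 11.4% for strain 564 and 11.2% for strain 564Y.

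Abscisic acid, the stress and dormancy hormone, is broken down by CYP707A hydroxylases. Both listed genes of that family rose in the mutant, beside 59.7% of all listed genes. CYP707A2 (Bra040762) had 1029, 1258 and 1151 normalised reads in wild type libraries A, B and C and a mean of 2815 in the mutant, whose single libraries were not recovered. That is a 2.46-fold rise, with an adjusted p of 4.82e-42 in the authors' deposited table. CYP707A1 (Bra012551) had 34.4, 47.8 and 39.5 in wild type libraries and 81.6, 90.4 and 98.7 in mutant libraries. This gene rose 2.22-fold (edgeR log2 change 1.15, SE 0.21, adjusted p = 3.85e-05).

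Gibberellins drive stem and leaf growth. The pathway has P450s at a synthesis step, ent-kaurenoic acid oxidase (CYP88A), and at a deactivation step, which CYP714A1 carries out in Arabidopsis. The deactivation gene CYP714A1 (Bra009803) had 0 reads in each wild type library and 101, 105 and 97.7 normalised reads in the mutant libraries. With 3 reads over the wild type group as the floor, it was at least 98.8-fold higher. Of the 3 members with 0 reads in the wild type it reached the highest level, and its mutant libraries had a coefficient of variation of 3.56%. CYP88A3 (Bra015394) had 144, 179 and 176 in wild type libraries and 327, 376 and 310 in mutant libraries, a 2.03-fold rise close to the authors' limit (edgeR log2 change 1.02, SE 0.15, adjusted p = 2.14e-06). Another ent-kaurenoic acid hydroxylase gene, Bra005596, which the rule does not match by name, averaged 386.2 in wild type libraries and 1456 in mutant libraries, 3.77-fold higher.

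Brassinosteroids, the steroid growth hormones, are made and inactivated by P450s. CYP72C1 (Bra026005), which lowers brassinosteroid levels in Arabidopsis, had 14.2, 12.2 and 14.6 normalised reads in wild type libraries and 83.6, 86.6 and 66.4 in mutant libraries. That is a 5.78-fold rise (edgeR log2 change 2.52, SE 0.27, adjusted p = 5.39e-08). On the synthesis side, BR6OX1 (Bra025427), a brassinosteroid 6-oxidase that is a P450 without the word in its description, was 2.55-fold higher, 32.0 ± 3.08 against 81.8 ± 13.6 (SD, n = 3 libraries each).

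CYP710A1 (Bra021916), a sterol desaturase that makes stigmasterol in Arabidopsis, showed the largest ratio among members with reads in both strains. Its wild type libraries held 2, 0 and 4 whole reads, and its mutant libraries 70, 79 and 86. The mean rose from 2.06 to 75.8 normalised reads, 36.7-fold with a 95% counting interval of 16.6 to 101.1. Without wild type library B the ratio was 24.5, and without wild type library C it was 74.9. CYP94B1 (Bra038632), of a subfamily that hydroxylates the active jasmonate conjugate in Arabidopsis, had 9, 0 and 0 reads in wild type libraries and 43, 37 and 55 in mutant libraries, 14.3-fold higher (interval 7.33 to 32.0). Its wild type reads all came from library A. Without that library the wild type held 0 reads, and without wild type library B or C the ratio was 9.56.

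**Figure D2:**
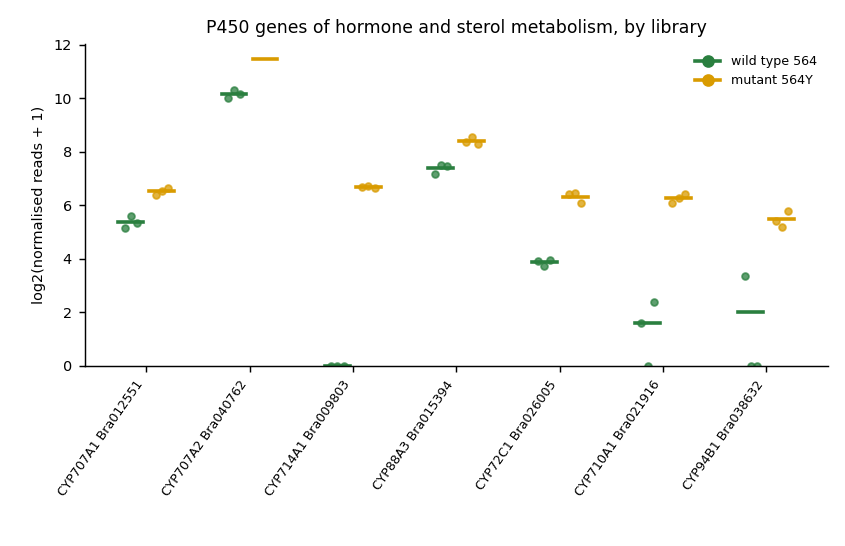
Level of the 7 P450 genes of abscisic acid, gibberellin, brassinosteroid, sterol and jasmonate metabolism, as log2(normalised reads + 1). Points are single libraries (3 per strain), and short lines are the log2 of the strain's mean plus 1; CYP707A2 has only the line in the mutant. In all 7 genes the mutant line lies above the wild type points, and libraries of the strains were separate in 100% of all recovered genes.

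Other hormone enzymes were taken from a list of synthesis and breakdown genes. In the table were 5 of them, 4 higher and 1 lower, beside 59.7% and 40.3% of all listed genes. GA20OX2 (Bra022565), a gibberellin synthesis enzyme, had 18.2, 18.3 and 2.08 normalised reads in wild type libraries and 174, 140 and 120 in mutant libraries, 11.2-fold higher. The gibberellin 2-oxidases, which deactivate gibberellin, went both ways. Bra008362 rose 2.69-fold from 38.1 ± 7.08 to 103 ± 15.8 and Bra032354 fell 2.46-fold from 117 ± 26.3 to 47.6 ± 15.3 (SD, n = 3 libraries each). An isopentenyltransferase gene (Bra007728), of cytokinin synthesis, rose 15.5-fold (interval 8.48 to 31.7) to 58.9, or 38.7-fold without wild type library C, and the cytokinin breakdown gene CKX5 (Bra015842) rose 2.12-fold to 902.2.

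Cutin and wax seal the leaf surface, and suberin seals root and wounded tissue. Their fatty acids are oxidised by CYP86 enzymes at the end of the chain, and CYP96 is a related family of the same clan. Members were placed in this group by family number only. All 6 P450 genes of this group rose, beside 59.7% of all listed genes, and their summed level went from 339.7 ± 35.7 to 799.0 ± 15.5 normalised reads (SD, n = 3 libraries each). CYP86A2 (Bra008519), a cutin hydroxylase in Arabidopsis, had 55.7, 35.6 and 38.5 normalised reads in wild type libraries and 122, 111 and 149 in mutant libraries, 2.94-fold higher (edgeR log2 change 1.55, SE 0.21, adjusted p = 1.36e-06). CYP86A4 (Bra033251), which makes floral cutin in Arabidopsis, had 93.1, 125 and 134 against 218, 259 and 230, a 2.004-fold rise. That was the smallest change of any P450 gene in the table, at a log2 ratio of 1.003 in the authors' deposited table, just inside their limit of 1. CYP86B1 (Bra013024), an enzyme of suberin in Arabidopsis roots, had 8, 3 and 13 whole reads in wild type libraries and 42, 34 and 44 in mutant libraries, 4.70-fold higher (interval 3.02 to 7.63).

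The CYP96 genes rose over a wider range. CYP96A4 (Bra035502) was the most abundant of the group, with 156, 146 and 195 normalised reads in wild type libraries and 375, 315 and 334 in mutant libraries, 2.06-fold higher. CYP96A1 (Bra038413) had 6, 7 and 0 whole reads in wild type libraries and 32, 53 and 38 in mutant libraries, 9.01-fold higher (interval 5.08 to 17.4). Without wild type library C, the one with 0 reads, the ratio was 6.01. CYP96A8 (Bra010675) had 2, 0 and 0 reads in wild type libraries and 21, 14 and 17 in mutant libraries, 24.8-fold higher with a wide interval of 6.54 to 210.4. Both of its wild type reads came from library A, so without that library the wild type held 0 reads, and without wild type library B or C the ratio was 16.6.

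Of a list of acyltransferases, ketoacyl-CoA synthases and CER genes, which act in the same pathways, 9 genes were in the table and all 9 were higher, beside 59.7% of all listed genes, with a median log2 ratio of 2.19 over the 8 that had reads in both strains. CER1 (Bra032670), which takes part in making the alkanes of wax, averaged 1379 ± 134 in the wild type (SD, n = 3 libraries) and 6075 in the mutant, 4.41-fold higher. The chain-elongating synthase KCS9 (Bra037304) had 12.1, 12.2 and 16.6 in wild type libraries and 171, 146 and 144 in mutant libraries, 11.2-fold higher, and KCS12 (Bra035683) rose 7.08-fold. Among glycerol-3-phosphate acyltransferases, which link the oxidised fatty acids to glycerol, GPAT6 (Bra017137, cutin) rose 4.73-fold, or 7.57-fold without wild type library B, and GPAT7 (Bra009162) was at least 9.77-fold higher. GPAT5 (Bra034843, suberin) rose 15.04-fold (interval 6.19 to 47.6). Its wild type reads all came from library C, and without wild type library A or B the ratio was 10.02. Names linked to roots and flowers were also searched. Of 3 root-linked genes 2 were higher, MLP34 (0.347 to 31.3 normalised reads) and RHD2 (7.83 to 56.7), while PERK13 went from 23.9 to 0. Of 3 loci with flower names 2 were higher, the AGL9 homolog (0.675 to 25.7) and the AGL8 homolog (0 to 14.2), while a FUL gene went from 206.8 to 103.0. Each count is 66.7% higher, near the 59.7% of all listed genes, so nothing about organs is read from them. Their part in the rise of the cutin, suberin and wax genes was not tested.

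**Figure D3:**
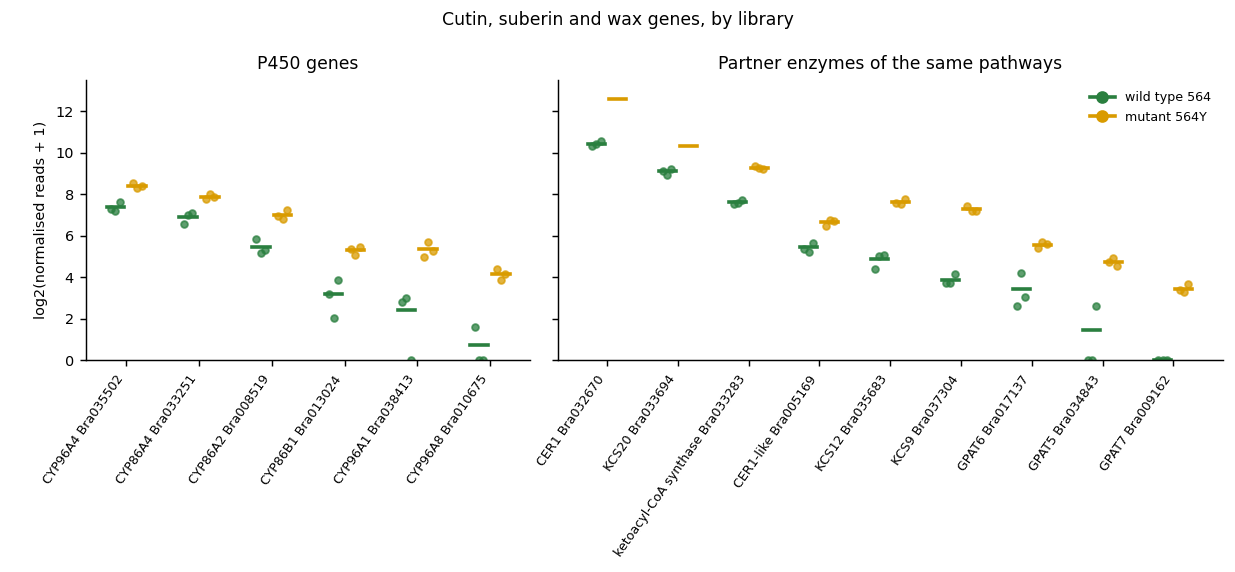
Level of the 6 P450 genes (left) and the 9 partner genes (right) grouped under cutin, suberin and wax, as log2(normalised reads + 1). Points are single libraries, 3 per strain, and short lines are the log2 of the strain's mean plus 1; CER1 and KCS20 have only the line in the mutant. In all 15 genes the mutant lies above every wild type point, with mutant means from 9.996 normalised reads for GPAT7 to 6075 for CER1. Libraries of the strains were separate in 100% of all recovered genes, since only called genes are listed.

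The triterpene group held 2 genes, both higher, beside 59.7% of all listed genes. CYP702A6 (Bra039554) had 59.7, 54.9 and 52.0 normalised reads in wild type libraries and 359, 323 and 319 in mutant libraries, 6.01-fold higher (edgeR log2 change 2.59, SE 0.16, adjusted p = 2.83e-11). CYP705A19 (Bra014143), of a family that oxidises triterpenes in Arabidopsis roots, had 0 reads in wild type libraries and 15, 10 and 20 in mutant libraries, at least 14.2-fold higher. The list of triterpene synthesis partners, such as the cyclases, had 0 listed genes.

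In the remainder of the CYP72 clan, both loci matched to CYP709B3, a gene of salt tolerance in Arabidopsis, rose and the CYP72A gene fell. Bra025281 had 348, 309 and 291 normalised reads in wild type libraries and 675, 714.9 and 644 in mutant libraries, 2.14-fold higher. Its neighbour by number Bra025280 had 28.3, 20.3 and 33.3 against 144, 153 and 122, 5.11-fold higher. CYP72A15 (Bra021572) had 39, 33 and 33 whole reads in wild type libraries and 4, 9 and 5 in mutant libraries, 6.18-fold lower (interval 3.72 to 10.8). It was the single lower gene outside the CYP71 clan among members with a family name. Counted by clan, a grouping made after the values were seen, 16 of 17 members of the CYP72, CYP85, CYP86 and CYP710 clans were higher. In the CYP71 clan 12 of 23 were higher (52.2%), or 12 of 19 without the glucosinolate core (63.2%). Both CYP71 shares lie near the 59.7% of all listed genes that were higher. The difference between clans was not tested.

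The 4 glucosinolate core genes, which turn amino acids into oximes and activate those oximes, all fell, by 2.60-fold to 4.10-fold. Of all listed genes 40.3% were lower. Downstream of them, CYP81F enzymes hydroxylate the indole ring of glucosinolates, CYP81F4 at the nitrogen atom in Arabidopsis. Of 4 genes named CYP81F in their match 3 fell and 1 rose. The 2 loci matched to CYP81F4 moved in opposite directions. Bra010598 had 128, 123 and 133 normalised reads in wild type libraries and 14.4, 10.6 and 10.7 in mutant libraries, 10.7-fold lower (edgeR log2 change -3.41, SE 0.24, adjusted p = 1.71e-10). Bra011759 had 103, 87.5 and 84.3 against 388, 381 and 338, 4.03-fold higher (edgeR log2 change 2.01, SE 0.15, adjusted p = 4.48e-10). Together they gave 219.6 ± 10.3 in wild type libraries and 380.9 ± 28.4 in mutant libraries (SD, n = 3 libraries each), a 1.73-fold higher sum. Of their reads, Bra010598 held 55.3% to 61.2% in the wild type libraries and 2.70% to 3.58% in the mutant libraries, a description of loci that were each called, in opposite directions, by the authors.

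Both loci matched to CYP81F3, of a subfamily whose members hydroxylate the indole ring in Arabidopsis, fell. Bra011758 had 121, 101 and 81.2 normalised reads in wild type libraries and 30.7, 38.5 and 35.2 in mutant libraries, 2.91-fold lower. Bra010597 had 10, 9 and 18 whole reads in the wild type and 0 in each mutant library, at least 13.1-fold lower. Summed, the genes named CYP81F stood at 333.4 ± 25.1 in wild type libraries and 415.7 ± 27.6 in mutant libraries (SD, n = 3 libraries each). The single rising locus among them thus outweighed the falls of the others.

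The CYP71 family, a large group of mostly defence and specialised metabolism enzymes, gave 11 members, 7 higher and 4 lower. That is 63.6% higher, near the 59.7% of all listed genes. No substrate is named here for these genes. CYP71B26 (Bra034237) had 383, 435 and 466 normalised reads in the wild type and a mean of 1585 in the mutant, 3.70-fold higher, with an adjusted p of 2.08e-68 in the authors' deposited table. Both CYP71B2 loci rose. Bra016741 had 232, 249 and 266 in the wild type and averaged 1121 in the mutant, 4.50-fold higher, and Bra016743 had 368, 363 and 323 and averaged 969.1, 2.76-fold higher. CYP71A22 (Bra019538) had 864, 821 and 862 in the wild type and a mean of 1777 in the mutant, 2.09-fold higher. Single mutant libraries of these 4 genes were not recovered. Of the low members, CYP71B7 (Bra026930) had 1, 2 and 0 whole reads against 22, 21 and 14, 18.1-fold higher (interval 5.87 to 90.1), with a ratio of 36.2 without wild type library B and 12.04 without wild type library C. CYP71B34 (Bra040821) rose 3.04-fold to 44.5.

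Among the falling CYP71 genes, CYP71A28 (Bra033509) had 53.6, 45.8 and 44.7 normalised reads in wild type libraries, while each mutant library held 0 reads, at least 49.7-fold lower. CYP71B11 (Bra020488) had 247, 275 and 254 in wild type libraries and 41.3, 45.2 and 40.1 in mutant libraries, 6.13-fold lower (edgeR log2 change -2.61, SE 0.17, adjusted p = 6.34e-11). CYP71B9 (Bra034239) fell 4.33-fold, from 66.8 ± 6.79 to 15.4 ± 6.24 (SD, n = 3 libraries each). The 2 loci matched to CYP71B4 went opposite ways. The more abundant, Bra036342, had 1125, 1153 and 1012 against 538, 490 and 489, 2.17-fold lower, while Bra034235 had 78.9, 76.3 and 82.2 against 447, 405 and 394, 5.25-fold higher. Their sum was 1176 ± 71.5 in wild type libraries and 920.8 ± 55.5 in mutant libraries (SD, n = 3 libraries each). Bra034235 supplied 6.21% to 7.51% of it in the wild type libraries and 44.6% to 45.4% in the mutant libraries, again with no test, since both loci were already called.

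The 3 remaining CYP71 clan members, under other family names, all rose, beside 59.7% of all listed genes. Families were read from the number in each name. Whether names of different families are synonyms was not checked. CYP76C2 (Bra014462), of a subfamily that oxidises monoterpene alcohols in Arabidopsis, had 86.03, 34.6 and 78.04 normalised reads in wild type libraries and 180, 171 and 172 in mutant libraries, 2.63-fold higher. Its wild type libraries were uneven, with B lowest, while the mutant libraries were close together. CYP82F1 (Bra024133) had 9, 1 and 8 whole reads against 63, 94 and 70, 11.9-fold higher (interval 7.35 to 20.4). CYP91A2 (Bra011761) had 0 reads in wild type libraries and 11, 13 and 6 in mutant libraries, at least 9.43-fold higher at the lowest level of any rising member.

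In 8 members the match says only cytochrome P450 and gives no family, so no role can be named. Of these 6 rose and 2 fell, beside 59.7% and 40.3% of all listed genes. Bra017757 had 153, 145 and 125 normalised reads in the wild type and a mean of 1068 in the mutant, 7.57-fold higher, with the smallest adjusted p of any member (1.17e-112 in the authors' deposited table). Bra001774 had 131, 110 and 94.7 against 791, 827 and 769, 7.12-fold higher (edgeR log2 change 2.83, SE 0.13, adjusted p = 6.03e-13). Bra011678 had 23.3, 24.4 and 37.5 against 423, 408 and 331, 13.6-fold higher. Among members with reads in both strains, Bra011678 was the only one with a ratio above 10 that rose from more than 10 normalised reads.

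The other rising members without a family name were Bra029224, Bra006743 and Bra038254. Bra029224 had 35.4, 30.5 and 32.3 normalised reads in wild type libraries and 122, 156 and 205 in mutant libraries, 4.92-fold higher. Bra006743 had 0, 0 and 7 whole reads against 59, 74 and 41, 23.1-fold higher (interval 10.95 to 58.2), and all of its wild type reads came from library C, without which the wild type held 0. Bra038254 had 6, 0 and 0 against 31, 37 and 26, 14.9-fold higher (interval 6.62 to 41.8). Its wild type reads came from library A, without which the wild type held 0, and without wild type library B or C the ratio was 9.97. Of the falling genes, Bra010644, matched to Brassica napus, had 513, 450 and 400 against 164, 129 and 119 normalised reads, 3.30-fold lower. Bra009148, matched to poplar, had 107, 62 and 81 whole reads in wild type libraries and 13, 5 and 5 in mutant libraries, 11.5-fold lower (interval 7.51 to 18.5), and 17.6-fold without mutant library A.

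Levels can be compared between genes after division by coding length. The members' coding lengths had a median of 1506 bases, against 1107 over all listed genes, and 44 of 48 lay between 1400 and 1700 bases. In the wild type the highest member was the glucosinolate gene CYP83A1 (Bra032734) at 2341 normalised reads per kb, followed by the CYP79B2 locus Bra011821 at 1200, CYP71B4 (Bra036342) at 854.2 and CYP707A2 at 791.0. In the mutant CYP707A2 came first at 1943 per kb, followed by CYP71A22 at 1221, CYP71B26 at 1055 and CYP83A1 at 869.7. CYP71A22 ranked 6 in the wild type at 583.5 per kb and CYP71B26 ranked 9 at 284.8. Adjacent genes in this order differed little in places: the difference between CYP71B4 and CYP707A2 in the wild type was smaller than the latter's standard deviation between libraries. Over the 44 members outside the glucosinolate core, the summed base means were 6852 in wild type libraries and 15321 in mutant libraries, and over all 48 they were 13712 and 17571.

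**Figure D4:**
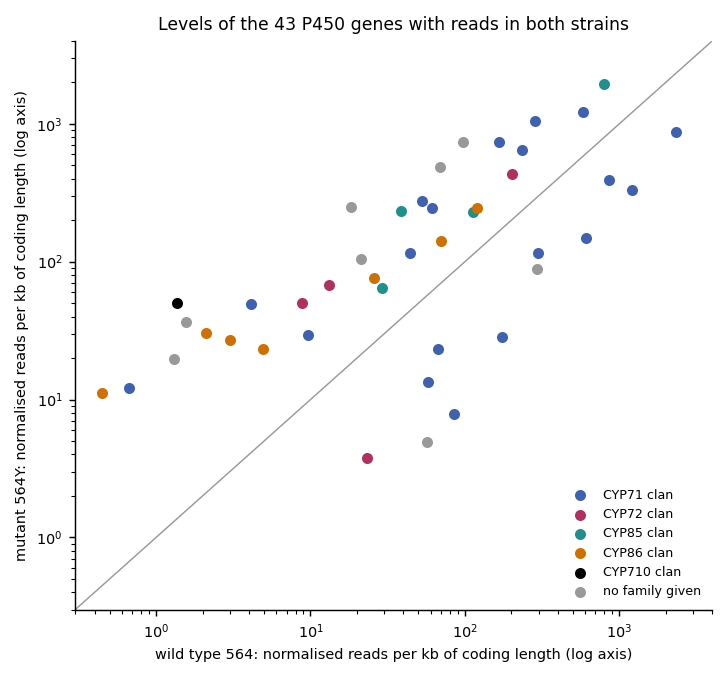
Normalised reads per kb of coding length in the mutant (vertical, log axis) against the wild type (horizontal, log axis) for the 43 P450 genes with reads in both strains, coloured by clan. Each point is 1 gene at the authors' group mean, and the line marks equal levels. Points of the CYP85, CYP86 and CYP710 clans lie above the line, 1 CYP72 point (CYP72A15) lies below it at 23.3 and 3.77 per kb, and CYP71 points lie on both sides.

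P450 genes often stand in tandem arrays, and 12 members formed 5 runs whose gene numbers differ by at most 3. Chromosome positions are not given here, so that these are genomic neighbours rests on their numbers. Of the 7 pairs of adjacent members in these runs, 5 moved the same way and 2 opposite ways. The share of same-way pairs over all listed genes was not worked out, so nothing is read from this count. The run of CYP81F3 (Bra011758), CYP81F4 (Bra011759) and CYP91A2 (Bra011761) held a falling gene beside rising ones. The run of CYP71B4 (Bra034235), CYP71B26 (Bra034237) and CYP71B9 (Bra034239) held 2 rising genes beside a falling one. In the run of CYP81F3 (Bra010597) and CYP81F4 (Bra010598), both fell, although the other CYP81F4 locus rose. The genome of this species went through a triplication, and 6 CYP names were shared by 2 loci each. Of these 6 names, 4 had loci moving the same way (CYP709B3, CYP71B2, CYP79B2 and CYP81F3) and 2 opposite ways (CYP71B4 and CYP81F4). This count too has no share over all listed genes beside it, and nothing is read from it. Values of near-identical copies are uncertain, because no source used here says how shared reads were assigned.

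**Figure D5:**
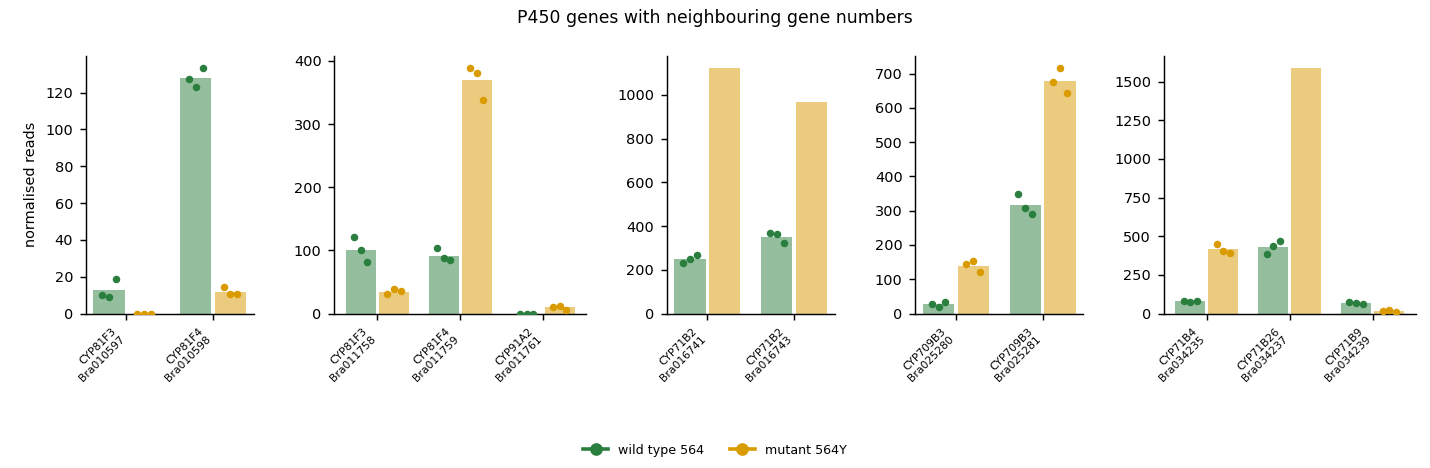
Normalised reads of the 12 P450 genes in 5 runs of neighbouring gene numbers, 1 panel per run, each with its own vertical axis from 0. Bars are strain means and points are single libraries (3 per strain); the mutant bars of both CYP71B2 loci and of CYP71B26 have no points because their libraries were not recovered. In the run from Bra011758 to Bra011761 the first gene falls from 101 to 34.8 while the second rises from 91.7 to 369.

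Some P450 genes carry descriptions without a P450 word and fall outside the rule. Cinnamate 4-hydroxylase (Bra021636), the P450 that opens phenylpropanoid synthesis, had 676, 473 and 534 normalised reads in wild type libraries and 198, 155 and 178 in mutant libraries, 3.17-fold lower. With this gene, the second ent-kaurenoic acid hydroxylase and BR6OX1 added, 36 P450 genes were higher and 15 lower. The added genes were picked after their values were seen. Not in that count are 2 more lower P450 genes, whose descriptions the rule leaves out. A flavonoid 3' hydroxylase (Bra009312) went from 1086 to 129 normalised reads, 8.41-fold lower. CYP83B1 (Bra034941) went from 9732 to 3681, 2.64-fold lower. Among enzymes that act beside P450s in lignin synthesis, 6 of 8 listed genes were higher, or 75%, beside 59.7% of all listed genes. They include all 4 listed laccases, a family with members that couple lignin units in the wall. Of the 2 lower genes, a putative cinnamoyl-CoA reductase (Bra015740) fell 2.07-fold, from 563.5 to 272.1 normalised reads. The other, a 4-coumarate-CoA ligase family gene (Bra016466), fell 14.5-fold, from 60.8 to 4.19 (interval 8.28 to 27.8). Summed base means of the 8 genes were nearly equal, 702.5 for strain 564 and 694.5 for strain 564Y. LAC12 (Bra009111) had 65.3, 88.5 and 94.8 normalised reads in the mutant and 2 reads in all in the wild type, 123-fold higher (interval 33.7 to 1020). Both wild type reads came from library A, and without wild type library B or C the ratio was 81.9. Of 23 listed UDP-glycosyltransferases, enzymes that often add a sugar to the hydroxyl group that a P450 has made, 6 were higher and 17 lower, beside 59.7% and 40.3% of all listed genes. The lower genes include the sucrose synthase SUS3, matched by its annotated activity, and UDP-glucosyl transferase 74b1 (Bra024634), which acts in glucosinolate synthesis and was 3.03-fold lower. The list of redox partners, P450 reductase and cytochrome b5, had 0 listed genes, so no matched gene passed the authors' limits.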

How the data were processed

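The deposited table holds, per the file headers, the mean read count of each strain over 3 libraries (treated as a signal), its base mean (treated as a score: reads divided by a size factor per library and averaged), the log2 ratio of the base means, and the p-value and adjusted p-value of the authors' test. The submitters' processing notes list TopHat2 2.0.12, Bowtie2 2.2.3 and DESeq 1.10.1 without saying what each did. For genome build, annotation, strand and read counter: not given in the sources used here. Only genes called by the authors are listed, so depth per library is unknown. Reads of genes recovered in both strains sum to 481577 to 587476 per library.

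Sums of reads and size-factor weighted sums per strain were solved for whole reads. Genes with a single read in a strain gave the size factors (0.961 to 0.988 in the wild type, 1.02 to 1.04 in the mutant). Exactly 1 solution within rounding existed in both strains for 2604 genes (88.0%), and the method was tested on simulated libraries. The size factors served as offsets in edgeR 4.0.16 (glmQLFit, glmQLFTest, group only, Benjamini-Hochberg adjustment over all recovered genes), and each SE is the log2 change divided by the square root of F. DESeq2 1.42.0 was an alternative. The labels' protocol calls the libraries independent biological replicates.

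Folds are ratios of base means. A base mean of 0.001 stood for 0 reads, and folds against 0 are lower bounds at 3 reads over the group. Intervals are exact 95% binomial (Clopper-Pearson) intervals, given for totals of up to 30 reads, and cover counting error only. Names are those of each gene's best sequence match, which was to Arabidopsis thaliana or Arabidopsis lyrata in 41 members. The RefSeq gene table used for names matched 0 members, so positions and sequences are not shown. Lengths are coding lengths.

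The members, role groups, partner lists and organ words were chosen with earlier results of these data known. The rule for full values took the 3 most abundant members of each role group, the 10 with the largest log2 ratio among those with over 3 reads per strain, and those with 0 reads in a strain. Values of the remaining members were added after they were seen, so that every member is reported.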

Additional observations from a re-analysis of the deposited data

How the results depend on the processing

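The counts of 34 higher and 14 lower P450 genes became 22 and 8 when a log2 ratio of 2 or more in size was required. Of all listed genes, 24.6% were higher and 13.3% lower at that limit. At an authors' adjusted p under 1e-10, 20 were higher and 10 lower. With descriptions that give a CYP name only, 28 were higher and 7 lower. Scaling by TMM over the selected genes moved the middle of all log2 changes by -0.41 with 0 changes of sign. Only the 41 members with recovered libraries could be tested in edgeR and DESeq2. Of these, edgeR with TMM called 22 higher and 13 lower. With the deposited size factors, edgeR and DESeq2 each called 28 higher and 13 lower. In edgeR this stood beside 56.7% and 43.2% of all recovered genes. Leaving out 1 library gave 26 to 28 higher and 13 to 13 lower. Shares of all genes under the other settings are not given here, so nothing particular to P450 genes is read from smaller counts. Settings chosen after seeing the data gave 33 and 7 without the glucosinolate core and CYP81F, and 29 and 12 with 1 member per run of neighbours. Of 6 cutin, suberin and wax P450 genes, 3 reached a log2 ratio of 2, 4 were called with TMM, and 1 passed an adjusted p of 1e-10. The 16 rising genes of the CYP72, CYP85, CYP86 and CYP710 clans became 9 under either of the first 2 limits. With TMM they became 10, beside 15 in edgeR without TMM. In the CYP71 clan 12 rising genes became 7 under each of the same settings, beside 8 in edgeR without TMM. Members without recovered libraries cannot be called in edgeR, with or without TMM. In the CYP71 clan 11 falling genes became 6 at a log2 ratio of 2. All 367 recomputed log2 values of the 41 recovered members kept their direction and stayed past 0.05, as all 2604 recovered genes do in edgeR, so this says nothing about stability. No paired analysis was possible because libraries A, B and C could not be tied to numbered replicates. The 7 abundant members without recovered libraries have no check by library.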
